A study of Homo sapiens with 2 samples.

Results

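Molecular chaperones and heat shock proteins were examined across the mTOR-bound chromatin of a cultured cell line, MDA-MB-231, that derives from a triple-negative human breast tumour. The rule for choosing genes uses no peak value, though it was set with earlier results of these data known. By this rule genes were taken by name and by the protein-coding type in the deposited annotation. They are the HSP70 and HSP110 genes (HSPA and HSPH1), the HSP90 genes, the J-domain genes (DNAJA, DNAJB and DNAJC), the chaperonins (HSPD1, HSPE1, TCP1 and the CCT genes), the small heat shock proteins (HSPB), BAG1 to BAG6 and the heat shock factors. RefSeq lists 94 protein-coding genes of these names, of 19974 on chromosomes 1 to 22 and X. They drew 58 of the 21440 peaks, assigned to 40 of the 94 genes. HSPB11 is listed there under its current symbol, IFT25, and was matched by its gene identifier.

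The study made 1 chromatin immunoprecipitation library with an antibody against the kinase mTOR (Abcam, by the labels) and 1 input library of the same cells. Both came from cells kept in DMEM with 10% serum and penicillin-streptomycin, with no further treatment named in the labels. The input served the submitters as the reference for peak calling and was not analysed here. Without a replicate no difference could be tested, and the 95% intervals given below (exact Clopper-Pearson) cover counting error over genes or peaks. Each peak carries a score deposited by the authors, from 13 to 5636 over all peaks with a median of 61, of a scale that the sources used here leave unstated, which serves only to rank peaks within this list. The sequencing depth is unknown, and a gene without a peak is not thereby shown to be unbound.

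Chaperones bind unfolded or partly folded proteins and keep them from aggregating. HSP70 proteins do so in cycles of ATP hydrolysis that J-domain proteins start and that nucleotide exchange factors, among them HSP110 and BAG proteins, complete. HSP90 acts later on kinases and hormone receptors, chaperonins enclose a substrate in a chamber, and small heat shock proteins hold substrates without ATP. Under heat and other proteotoxic stress many of these genes are switched on by HSF1, which binds as a trimer to heat shock elements, inverted repeats of the bases GAA. In the unstressed state HSF1 is held back by chaperones, and mTOR is among the kinases reported to act on it.

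A promoter peak is used below for a peak assigned to the gene that reached within 1 kb of its start, judged by the peak width and the distance that the authors deposited for its centre. The strongest such peaks were those of HSPD1, HSPA6, HSP90AA1 and HSPH1. Their promoter windows, 250 bases before to 50 after the start from the RefSeq table on GRCh38.p14, are shown with that of HSPA8 because these windows carry the recognisable elements. Each is written 5′ to 3′ on the strand of the gene. For HSPH1 the RefSeq start differs from the start to which its peak was assigned. Capitals mark GAANNTTC or TTCNNGAA, each made of a pair of inverted heat shock element units, except in HSPH1, where they mark a longer match described with the motifs. The windows are HSPD1 at chr2:197499791-197500090 (minus strand), HSPA6 at chr1:161524290-161524589 (plus), HSP90AA1 at chr14:102086995-102087294 (minus), HSPA8 at chr11:123062087-123062386 (minus) and HSPH1 at chr13:31162339-31162638 (minus).
HSPD1: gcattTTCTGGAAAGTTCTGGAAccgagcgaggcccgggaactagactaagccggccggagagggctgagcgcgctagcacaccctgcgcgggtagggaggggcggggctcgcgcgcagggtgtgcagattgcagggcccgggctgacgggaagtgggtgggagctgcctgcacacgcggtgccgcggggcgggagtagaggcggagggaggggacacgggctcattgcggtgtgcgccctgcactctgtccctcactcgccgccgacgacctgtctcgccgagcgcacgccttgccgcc
HSPA6: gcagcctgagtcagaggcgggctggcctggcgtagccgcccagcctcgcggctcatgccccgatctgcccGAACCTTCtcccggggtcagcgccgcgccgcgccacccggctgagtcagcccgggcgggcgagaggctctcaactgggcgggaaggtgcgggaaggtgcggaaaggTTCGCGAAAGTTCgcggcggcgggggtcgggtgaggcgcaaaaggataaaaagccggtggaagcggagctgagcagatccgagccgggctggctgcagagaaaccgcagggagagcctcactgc
HSP90AA1: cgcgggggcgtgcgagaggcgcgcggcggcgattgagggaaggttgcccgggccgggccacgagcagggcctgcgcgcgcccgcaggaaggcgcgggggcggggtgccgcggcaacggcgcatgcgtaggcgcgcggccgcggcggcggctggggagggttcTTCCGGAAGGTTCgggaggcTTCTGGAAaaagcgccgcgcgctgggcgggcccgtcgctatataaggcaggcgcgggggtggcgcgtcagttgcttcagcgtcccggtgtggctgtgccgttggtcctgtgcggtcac
HSPA8: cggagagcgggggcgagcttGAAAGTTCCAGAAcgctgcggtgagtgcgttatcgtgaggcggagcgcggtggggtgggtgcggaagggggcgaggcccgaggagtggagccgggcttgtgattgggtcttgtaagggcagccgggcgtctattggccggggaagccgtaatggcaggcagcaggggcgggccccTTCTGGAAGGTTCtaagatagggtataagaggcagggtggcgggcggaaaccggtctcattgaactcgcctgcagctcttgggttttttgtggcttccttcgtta
HSPH1: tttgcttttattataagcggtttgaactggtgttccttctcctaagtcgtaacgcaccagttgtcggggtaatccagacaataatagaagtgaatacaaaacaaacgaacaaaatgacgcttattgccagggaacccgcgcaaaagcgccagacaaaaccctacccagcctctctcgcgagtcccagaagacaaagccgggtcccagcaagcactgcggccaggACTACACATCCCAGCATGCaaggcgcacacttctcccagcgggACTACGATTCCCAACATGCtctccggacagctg

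Of the 94 genes 22 had a promoter peak (23.4%, interval 15.3 to 33.3%), against 15.5% of all protein-coding genes. The interval reaches down to the background share. Another 18 genes had assigned peaks only farther away (19.1%, 11.8 to 28.6%, all protein-coding genes 26.2%), and 54 had none. Without peaks over repeats 11 chaperone genes had distant peaks alone (11.7%), against 8.04% of all protein-coding genes. No interval was computed for this share, and the turned order was not tested. Counting promoter and distant peaks alike, 42.6% of the chaperone genes were named by a peak, close to the 41.7% of all protein-coding genes. A total of 8 genes had both a promoter peak and a distant one, DNAJC6 had a pair of promoter peaks, and DNAJC1 had the most peaks, 5. In the deposited classes 34.5% of the 58 chaperone peaks were promoter peaks, 31.0% intergenic and 25.9% intronic, while peaks of the other protein-coding genes were 16.0% promoter, 39.0% intergenic and 38.8% intronic.

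**Figure D1:**
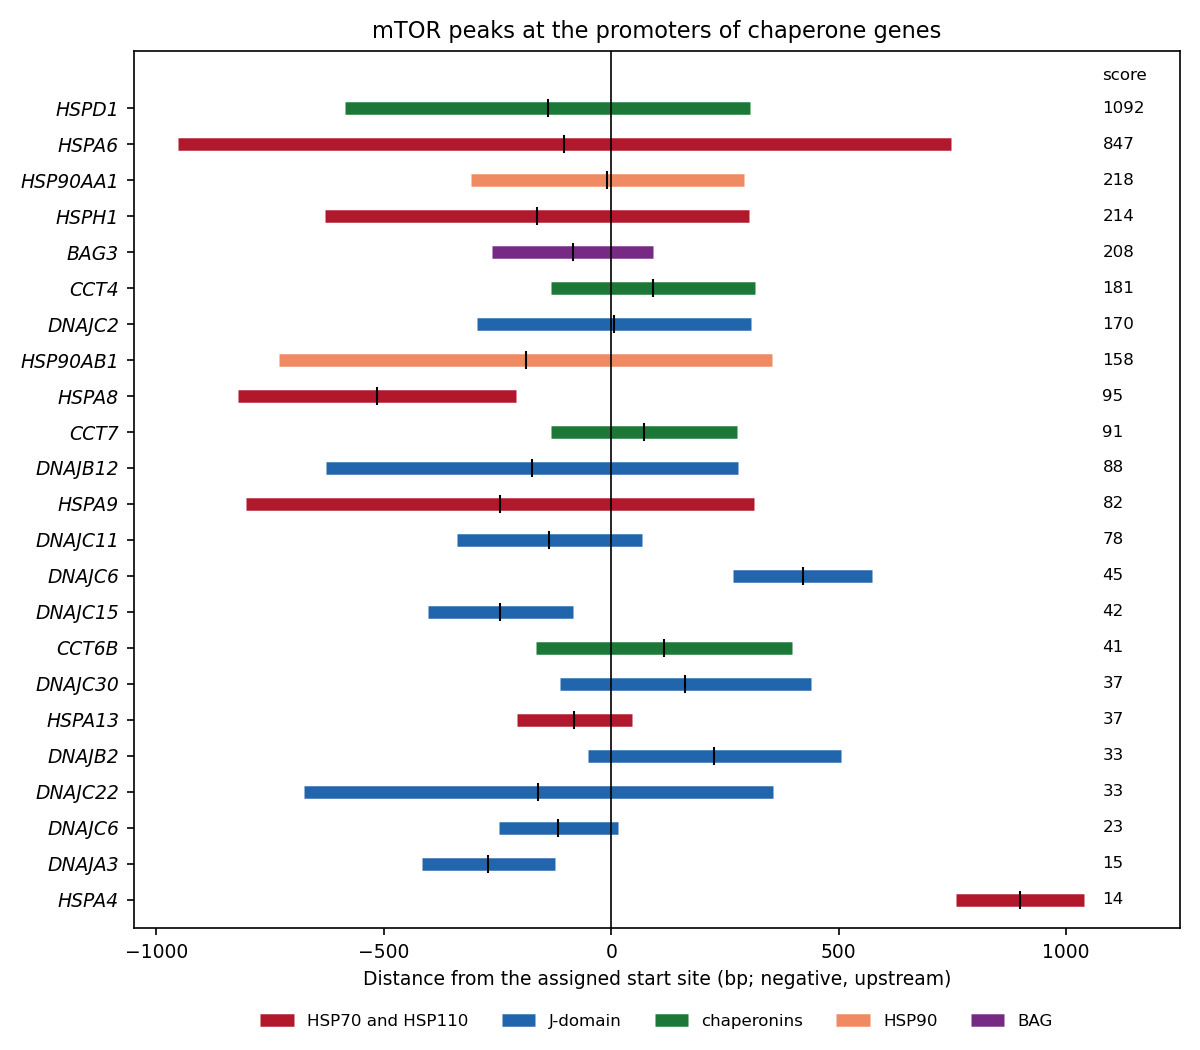
Extent of the 23 promoter peaks of 22 chaperone genes relative to the assigned start site in bp, ordered by the deposited score printed at the right. Bars span each peak, black ticks mark its centre and colours give the family. Most peaks cross the start, while those of HSPA8, DNAJC15 and DNAJA3 end before it, and the stronger DNAJC6 peak and that of HSPA4 begin after it.

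The promoter peaks of the chaperone genes had scores from 14 to 1092 with a median of 82, against a median of 54 for the 3312 promoter peaks of the other protein-coding genes. They were also wider, with a median of 557 bp against 446 bp. Their centres lay upstream of the start in 15 of 23 (65.2%), against 57.2% of the other promoter peaks. None of the 23 had a repeat at its centre, and 3.53% of the other promoter peaks did. Among the 2144 highest-scoring peaks of the list, whose lowest score was 200, 5 of the 94 genes had a promoter peak (5.32%), against 1.57% of all protein-coding genes. Among the 10720 higher-scoring peaks 13 had one (13.8%), against 7.45%. No intervals were computed for these shares by score. The 5 were HSPD1, HSPA6, HSP90AA1, HSPH1 and BAG3, each a gene known to be induced by heat shock. DNAJB1, HSPA1A, HSPA1B and HSPB1, which heat shock also induces, had no promoter peak. The heat-induced genes among the 94 were not counted, so these genes are examples only.

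**Figure D2:**
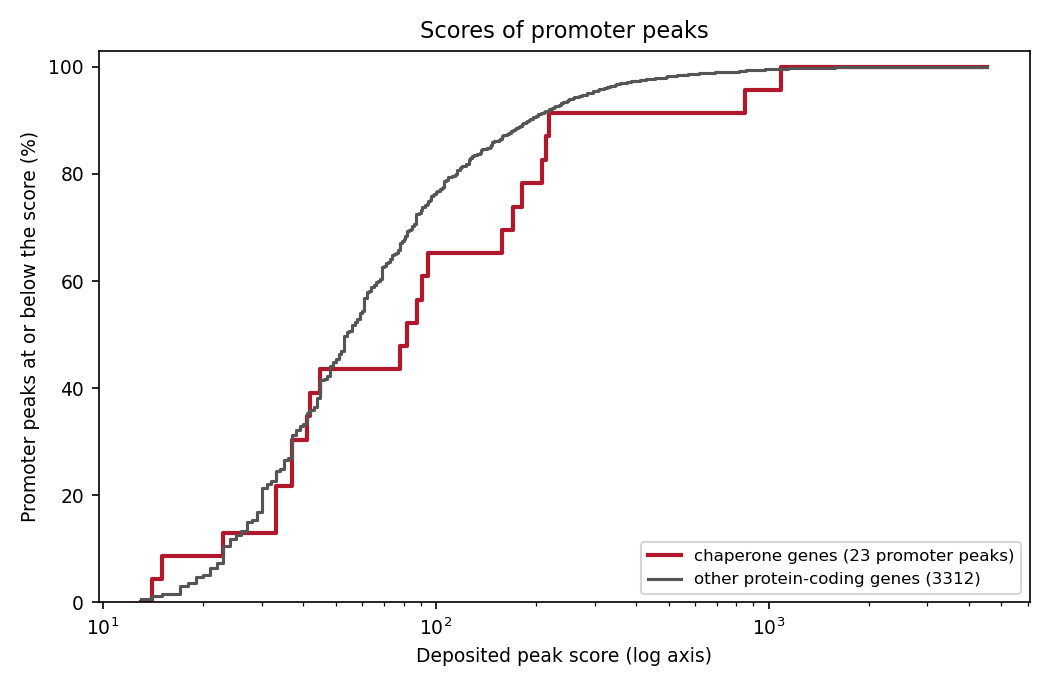
Cumulative share (%) of promoter peaks at or below a deposited score (log axis) for the chaperone genes (23 peaks) and the other protein-coding genes (3312 peaks). The chaperone curve follows the other up to a score of about 45 and then runs to its right, with medians of 82 and 54.

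The regulators of the response had no peak. None of the 4 heat shock factor genes, HSF1, HSF2, HSF4 and HSF5, had an assigned peak, and none had a peak of any other gene within 1 kb of its start in RefSeq. With 4 genes the interval for a promoter peak reaches 60.2%, so the family cannot be placed against the background of 15.5%.

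HSP70 and HSP110 genes had a promoter peak in 6 of 15 (40.0%, interval 16.3 to 67.7%), with a lower bound just above the 15.5% of all protein-coding genes. With a window of 100 bp 4 of the 15 had one (26.7%, all protein-coding genes 10.9%). By the deposited promoter class 5 had one (33.3%). No intervals were computed for these narrower counts, so they do not place the family above the background. HSPA6, the strictly inducible HSP70B', had the second strongest promoter peak of all chaperone genes, with a score of 847, above 99.4% of all peaks. It was 1700 bp wide (chromosome 1, 161523588 to 161525287, hg38) and reached from -953 to 747 bp around the start, over the whole window printed above. A further peak of score 127 lay 6301 bp after the start (161530198 to 161531484), in a CpG island by the deposited label. HSPA7, a transcribed pseudogene nearly identical to HSPA6 on the same chromosome, had no promoter peak but 1 peak of score 87, 6773 bp from its start. How reads that align to both copies were treated is not given in the sources used here, so the share of each copy is uncertain.

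HSPH1, the HSP110 that exchanges nucleotide on HSP70, followed with 214 (chromosome 13, 31161719 to 31162650), above 91.1% of all peaks. HSPA8, the constitutive cytosolic HSC70, had a promoter peak of 95 (chromosome 11, 123062345 to 123062957) centred at -515 bp. It ended at -209 bp, before the start, and so shared only 42 bases with the printed window. HSPA9, the mitochondrial HSP70 mortalin, had 82 (chromosome 5, 138575086 to 138576204), and HSPA13, an HSP70 of the endoplasmic reticulum, had 37. HSPA4, an HSP110 relative, had 14 in its first intron at 899 bp, so that it counted only by the width of the window. These 6 genes range from above 99.4% of all peaks, at HSPA6, to above 0.396%, at HSPA4.

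The stress-inducible pair HSPA1A and HSPA1B had no promoter peak. HSPA1A had no peak within 10 kb of the gene, and HSPA1B had 1 of score 23 in its single exon, 2030 bp after the start. Their coding sequences are nearly identical, so the same limit on shared reads holds. HSPA5, the HSP70 BiP of the endoplasmic reticulum, had no assigned peak, nor had HSPA1L, HSPA2, HSPA4L, HSPA12B or HSPA14. HSPA12A had a peak of 41 at -8496 bp in an intron of ENO4.

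Both cytosolic HSP90 genes had a promoter peak, 2 of 3 in the family (66.7%, interval 9.43 to 99.2%). The interval includes the 15.5% of all protein-coding genes. HSP90AA1, the inducible HSP90 alpha, had 218 (chromosome 14, 102086754 to 102087353) with its centre at -9 bp from the start. HSP90AB1, the constitutive HSP90 beta, had 158 (chromosome 6, 44246229 to 44247312) with its centre at -188 bp, and a second assigned peak of 51 at -8209 bp. Another peak, of score 45, lay with its centre at -162 bp from a further RefSeq start of HSP90AB1, without a gene name in the deposited table. HSP90B1, the endoplasmic reticulum HSP90 GRP94, had no assigned peak. A peak of 65 that reached from -799 to -461 bp of its start was assigned to the pseudogene TTC41P.

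J-domain genes, the largest family, had a promoter peak in 9 of 45 (20.0%, interval 9.58 to 34.6%), near the background of 15.5%. By class they were 1 of 4 DNAJA, 2 of 12 DNAJB and 6 of 29 DNAJC genes. Of the 45 genes 11 had distant peaks alone and 25, among them DNAJA1, DNAJA4 and DNAJB9, had no assigned peak. Their 10 promoter peaks were weak, with a median score of 39.5 and a highest of 170. That highest one was at DNAJC2, which encodes the ribosome-associated J protein MPP11 (chromosome 7, 103344565 to 103345169, centre 6 bp from the start). DNAJB12, a J protein of the endoplasmic reticulum membrane, had 88 and a second peak of 95 at its transcript end. DNAJC11, of the mitochondrial contact site machinery, had 78. DNAJC6, the neuronal clathrin uncoating factor auxilin, had 45 and 23, DNAJC15 had 42, DNAJC30 had 37, DNAJB2 and DNAJC22 each had 33, and DNAJA3, the mitochondrial TID1, had 15. DNAJB1, the main inducible partner of HSP70 in the cytosol, had a single assigned peak of score 21, 10021 bp from its start.

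Chaperonin genes had a promoter peak in 4 of 13 (30.8%), with an interval of 9.09 to 61.4% that contains the 15.5% of all protein-coding genes. HSPD1, the mitochondrial HSP60, had the highest score of all chaperone promoters, 1092, which was above 99.7% of all peaks and rank 65 of 21440. The peak covered 893 bp (chromosome 2, 197499534 to 197500426) and reached from -586 to 306 bp around the assigned start. It also covered the RefSeq start of HSPE1, which encodes the lid HSP10 and is read in the other direction. HSPE1 had no peak of its own in the deposited assignment since each peak names 1 gene.

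TRiC, the cytosolic chaperonin that folds actin and tubulin, is built from the products of 8 genes. Of these CCT4 had a promoter peak of 181 (chromosome 2, 61888339 to 61888789) and CCT7 one of 91 (chromosome 2, 73234176 to 73234585). CCT5 had a peak of 44 in the last exon of the neighbouring gene CMBL, 27532 bp away. TCP1, CCT2, CCT3, CCT6A and CCT8 had no assigned peak. CCT6B, a testis form of the zeta subunit, had a promoter peak of 41, and CCT8L2, a CCT-like gene, had an intergenic L1 peak of 97 at 37085 bp.

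None of the 8 small heat shock protein genes had a promoter peak, and the interval, up to 36.9%, contains the 15.5% of all protein-coding genes. HSPB1, which encodes the widely expressed HSP27, came closest. Its peak of score 41 in exon 2 of 3 was centred 1175 bp after the start (chromosome 7, 76303694 to 76304002), with its edge 1021 bp away and so just outside the 1 kb window, where the HSPA4 peak at 758 bp was the last one inside. A second HSPB1 peak, of 82, lay at 11774 bp. HSPB11, an intraflagellar transport subunit that carries the family name, had 273 over an L1 element in intron 2, and HSPB7 had 41 at its transcript end. HSPB2, HSPB3, HSPB6, HSPB8 and HSPB9 had no assigned peak.

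Of the 6 BAG genes BAG3 alone had an assigned peak (16.7%, interval 0.421 to 64.1%), against 41.7% of all protein-coding genes with a peak of either kind and 15.5% with one at the promoter. BAG3 directs HSP70 clients to autophagy. Its peak had a score of 208 and was 355 bp wide (chromosome 10, 119651108 to 119651462), reaching from -262 to 92 bp around the start. BAG1, BAG2, BAG4 and BAG6 had no peak, and BAG5 had one only by way of a neighbour.

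**Figure D3:**
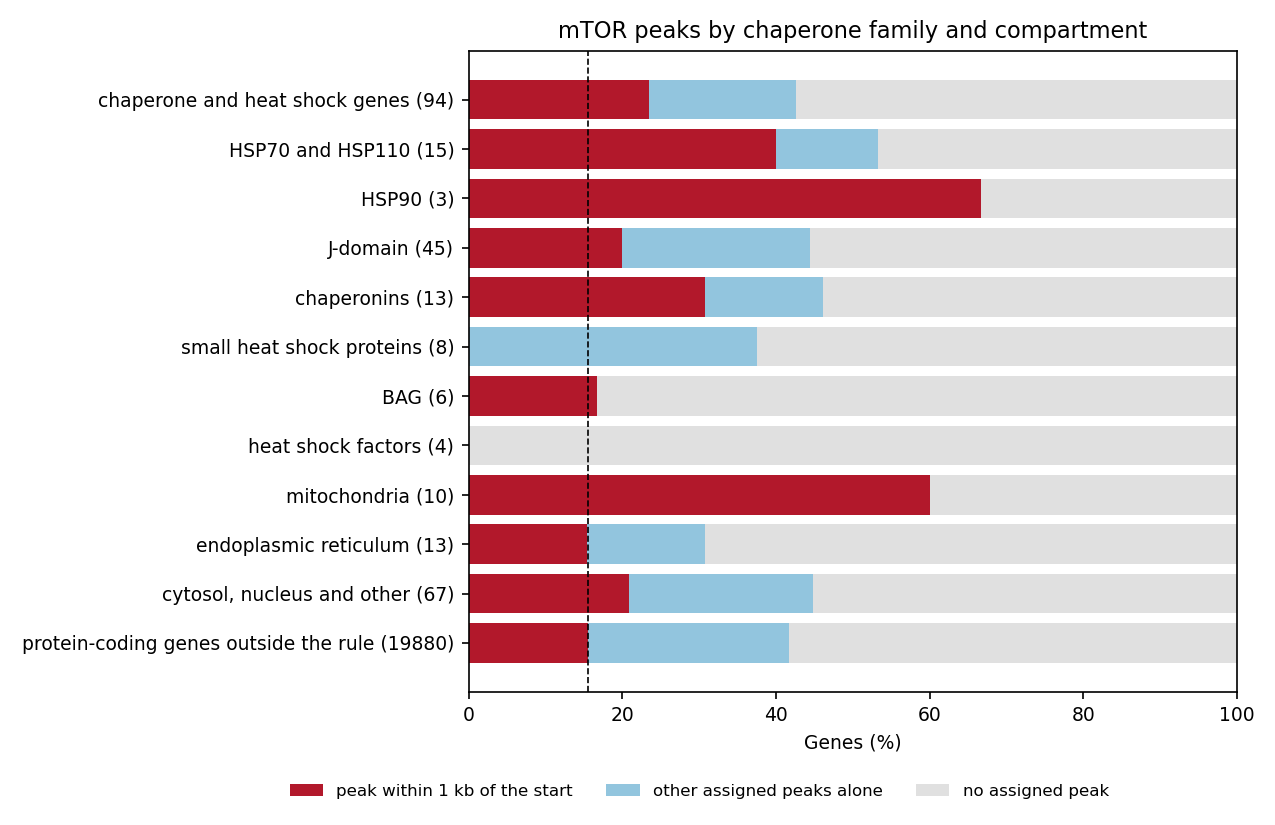
Share of genes (%) with a peak within 1 kb of the start (red), with other assigned peaks alone (blue) and with no assigned peak (grey), for all chaperone genes, the 7 families, the 3 compartments and the other protein-coding genes, with the number of genes in brackets. The dashed line marks 15.5%, the promoter share of the other genes, which the mitochondrial list exceeds at 60.0% and the endoplasmic reticulum list meets at 15.4%.

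Genes were also grouped by the compartment in which the protein works. Genes of mitochondrial chaperones had a promoter peak in 6 of 10 (60.0%, interval 26.2 to 87.8%). That interval lies above the background of 15.5%, but it was not adjusted for the number of families and compartments examined. The lists were set with earlier results of these data known, so the share describes only the genes chosen. Among the higher-scoring peaks counted earlier 3 of the 10 had one (30.0%, all protein-coding genes 7.45%), and no interval was computed. The 6 genes were HSPD1 at 1092, HSPA9 at 82, DNAJC11 at 78, DNAJC15 at 42, DNAJC30 at 37 and DNAJA3 at 15. Their median score was 60, close to the 54 of other promoter peaks, and HSPD1 was the only one among the 2144 highest-scoring peaks. The 4 without an assigned peak were HSPE1, DNAJC4, DNAJC19 and DNAJC28. Genes of endoplasmic reticulum chaperones had a promoter peak in 2 of 13 (15.4%, 1.92 to 45.4%), HSPA13 and DNAJB12. DNAJC1 and DNAJB14 had distant peaks alone, and the other 9, HSPA5 and HSP90B1 among them, had no assigned peak, though HSP90B1 had the peak near its start that was assigned to TTC41P. The remaining genes, of the cytosol, nucleus and other places and without the heat shock factors, had 14 of 67 (20.9%, 11.9 to 32.6%). The 3 shares were not tested against each other, and the intervals of the first and the last overlap.

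Some peaks over the start of a chaperone gene were assigned to its neighbour. With any peak within 1 kb of a RefSeq start counted, whichever gene it was assigned to, 31 of the 94 genes had one (33.0%, interval 23.6 to 43.4%), against 18.6% of all protein-coding genes. For genes without a listed start, 10 of them chaperone genes, either end of the gene was used. The 9 genes added were HSPE1 and its readthrough form HSPE1-MOB4, TCP1, CCT3, HSP90B1, DNAJA1, DNAJB5, DNAJC14 and BAG5. Chaperonins thereby reached 8 of 13 (61.5%, 31.6 to 86.1%), of which the HSPD1 peak supplies 3, and the TRiC subunits 4 of 8. All 3 HSP90 genes had such a peak.

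The TCP1 peak, of score 23, was centred at -266 bp from the TCP1 start and assigned to MRPL18, a mitochondrial ribosomal protein gene read in the other direction. The DNAJA1 peak had 52 and was assigned to APTX, the BAG5 peak had 35 and was assigned to COA8, and the DNAJC14 peak had 109 and was assigned to TMEM198B. The CCT3 peak, of 78, lay from 612 to 1207 bp after the CCT3 start and was assigned to TSACC, and the DNAJB5 peak, of 19, was assigned to DNAJB5-DT. Of the 23 promoter peaks assigned to chaperone genes, 5 also had the start of a second protein-coding gene within 1 kb (21.7%, interval 7.46 to 43.7%), against 389 of 3210 other promoter peaks (12.1%), those on chromosomes for which RefSeq starts were listed here. All 4 chaperonin promoter peaks were among these 5, with HSPE1 beside HSPD1, COMMD1 beside CCT4, PRADC1 beside CCT7 and ZNF830 beside CCT6B. The last was that of DNAJC30, beside BUD23.

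**Figure D4:**
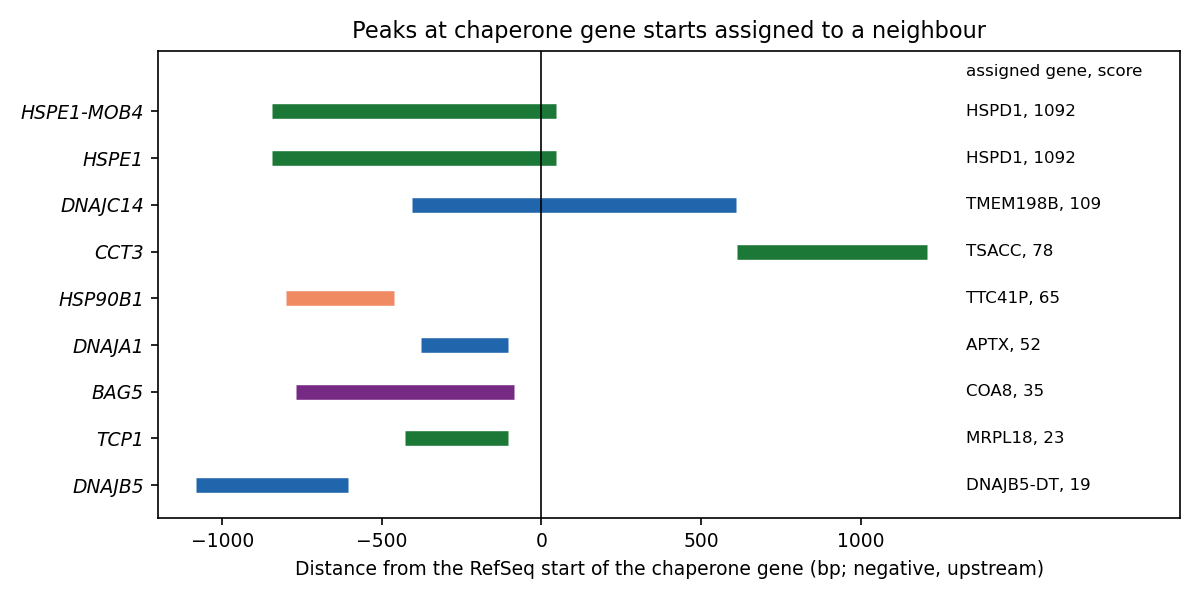
Peaks within 1 kb of a RefSeq start of the 9 chaperone genes that had no promoter peak of their own in the deposited assignment. Bars give the extent of the peak in bp from the start of the chaperone gene, with the assigned gene and the deposited score at the right. The peak of HSPD1 reaches 47 bp past the HSPE1 start, and the CCT3 peak lies inside the gene.

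Distant peaks numbered 35. Their scores ran from 19 to 454 with a median of 66, against 61 for the 12005 distant peaks of the other protein-coding genes, and their median distance was 22564 bp, against 27181 bp. Within 10 kb lay 9 of them, from 10 to 50 kb 17, and beyond 50 kb 9. A repeat lay at the centre of 19 of the 35 (54.3%, interval 36.6 to 71.2%), against 76.6% of the other distant peaks. L1 elements alone made up 40.0% of the chaperone and 40.9% of the other distant peaks.

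The 3 highest-scoring distant peaks belonged to J-domain genes, the family that held 21 of the 35 distant peaks. DNAJC1, a J protein of the endoplasmic reticulum membrane, had one of 454 in intron 1, 10219 bp from its start (chromosome 10, 21993224 to 21993798), outside repeats. Its 4 other peaks had 66 or less and lay over L1 and LTR elements. DNAJB5 had 429 in an L1 element at 20188 bp and 132 in its first intron. DNAJA2 had 314 at -64682 bp, between genes. The HSPB11 peak of 273 came next. DNAJC5, the cysteine string protein, had 203 in an Alu element of intron 1. HSPA8 had 193 at -56639 bp, in intron 1 of CLMP. Assignment to the nearest start does not show which gene, if any, these peaks act on.

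**Figure D5:**
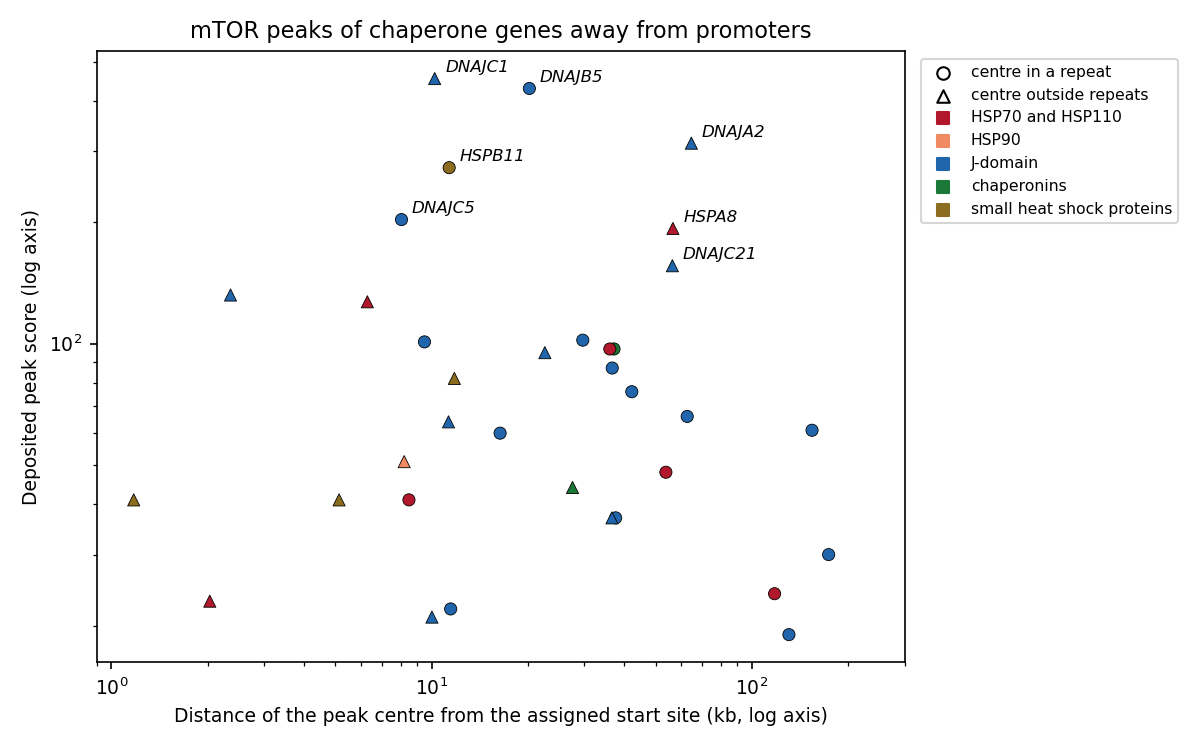
Deposited score (log axis) of the 35 chaperone peaks outside the start-site window against the distance of the peak centre from the assigned start in kb (log axis). Colours give the family, circles have a repeat at the centre and triangles do not. The peaks named have scores above 150, led by DNAJC1 at 454 and DNAJB5 at 429.

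The promoter windows allowed the sequence under the peaks to be described. A RefSeq window was listed for 84 of the 94 genes, and 26 of these windows shared at least 42 bases with a peak, whichever gene the peak was assigned to. Their GC content had a median of 65.7%, equal to that of the 2296 windows of other protein-coding genes under a peak. The 58 chaperone windows not under a peak had 63.5%, and the 13432 such windows of other genes 62.3%. Where a gene has several listed starts, the window sharing most bases with a peak, or else the first listed, was used.

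GAANNTTC or TTCNNGAA, searched on both strands, occurred in 11 of the 26 chaperone windows under a peak (42.3%, interval 23.4 to 63.1%). They occurred in 10 of the 58 chaperone windows not under a peak (17.2%, 8.59 to 29.4%). Among other genes the share was 10.4% under a peak and 11.6% elsewhere, and 11.5% over all windows. A match counted anywhere in a window that shared bases with a peak, and the only matches of CCT6B and DNAJC6 lay outside the peak. HSPE1 and HSPE1-MOB4 have the same window and were counted separately. A GAANNTTC that overlapped a TTCNNGAA, which makes 3 alternating units, was found in 5 of the 26 windows (19.2%, 6.55 to 39.4%) and in 1 of the 58. It was found in 10 of the 2296 other windows under a peak (0.436%) and in 0.335% of the rest, or 0.386% of all windows. This longer form was added after the list of motifs had been set.

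The 5 genes were HSPD1, HSPA6, HSP90AA1, HSPA8 and DNAJA1. In HSPD1 the matches ran from -245 to -228 bp of the start. In HSPA6 they ran from -74 to -62 bp with a separate one from -180 bp, and in HSP90AA1 from -88 to -76 bp with another from -68 bp, all inside the peak. In HSPA8 the matches from -230 to -218 bp lay inside the peak and those from -55 to -43 bp outside it. In DNAJA1 the overlapping matches lay 4 to 16 bp after the start, past the edge of the peak. The 1 window without a peak was that of DNAJB6. HSPA1A, HSPA1B and HSPB1 each had a single match and no peak over the window. HSPH1, BAG3, DNAJC2 and HSP90AB1, whose promoter peaks scored 214, 208, 170 and 158, had no such match in their windows.

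ACTACAA, the core of the element bound by RONIN and ZNF143, was in none of the 26 chaperone windows under a peak and in 3 of the 58 others. It was in 7.27% of other windows under a peak, in 2.50% of other windows elsewhere and in 3.20% of all windows. HSPH1 held a related pair of sequences, marked in its window, of ACTAC, 3 bases, TCCCA, 2 bases and ATGC. They read ACTACACATCCCAGCATGC from -26 to -8 bp of the RefSeq start and ACTACGATTCCCAACATGC from 18 to 36 bp after it, both inside the peak. That start is not the one to which the peak was assigned. The peak centre lay 204 bp after the RefSeq start and at -163 bp from the assigned start. This pattern was chosen after the HSPH1 window had been read. It occurred in 56 of 15812 windows (0.354%), 25 of them under a peak, HSPH1 included. HSPH1 was also 1 of 2 genes with more than one match. Among other protein-coding genes the pattern was in 1.05% of windows under a peak and in 0.231% of windows elsewhere. No other chaperone window held it.

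Of the other motifs, CCAAT was in 26.9% of the chaperone windows under a peak and 43.1% of those not under one, against 34.1% of other windows under a peak and 36.2% of all windows. The ETS core CCGGAA was in 30.8% and 22.4% of them, against 37.4% of other windows under a peak and 23.0% of all. The E-box CACGTG was in 11.5% and 10.3%, against 12.7% of other windows under a peak and 8.92% of all. The endoplasmic reticulum stress element was in 0 of the 26 windows under a peak and in 2 of the 58 others, those of HSPA5 and HSP90B1, with 0.12% over all windows. The NRF1 element was in 0 of the 26 and in 2 of the 58, with 1.76% over all.

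Partners of these chaperones outside the name rule were counted from a separate list of co-chaperones, prefoldin subunits, folding enzymes and organelle proteases. A promoter peak was present at 16 of 41 (39.0%, interval 24.2 to 55.5%), against the background of 15.5%. The list was set with earlier results of these data known, so its share describes only the genes chosen. PFDN4, a subunit of prefoldin, which hands nascent actin and tubulin to TRiC, had the highest score, 358, and PFDN6 had 56, while PFDN1, PFDN2, PFDN5 and VBP1 of the same complex had no assigned peak. ST13, an HSP70 cofactor, had 260, SGTA had 105 and HSPBP1, an HSP70 exchange factor, had 56. Of the HSP90 cofactors FKBP5 had 94, STIP1, which bridges HSP70 and HSP90, had 55 and AHSA1 had 45. CDC37, FKBP4 and PTGES3 had distant peaks alone, and CHORDC1, SUGT1, UNC45A and STUB1 had no assigned peak. STUB1 had a peak within 1 kb of a RefSeq start that was not assigned to it. In mitochondria the disaggregase gene CLPB had 251, GRPEL2, an exchange factor of HSPA9, had 129, and the protease genes CLPP and LONP1 had 62 and 56, while TRAP1, GRPEL1, CLPX and HSCB had no assigned peak. In the endoplasmic reticulum CALR had 74, SERPINH1 had 58 and P4HB had 35, while CANX, HYOU1, PDIA3, PDIA4 and SDF2L1 had no assigned peak. HSF2BP, which encodes a binding partner of HSF2, had 58. Of the 41 partners 24 had an assigned peak of either kind (58.5%, interval 42.1 to 73.7%), against 41.7% of all protein-coding genes.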

How the data were processed

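Per the labels' protocols, an mTOR antibody was used to enrich cross-linked chromatin from MDA-MB-231. Trimmomatic 0.36, BWA 0.7.12, Picard 2.0.1, MACS2 2.1.1.20160309 and HOMER 4.11.1 were used on build hg38 per the submitters' processing notes, which give no settings. The peak threshold and the treatment of duplicate and multiply aligned reads are unstated, and either could change peaks over near-identical genes. The authors deposited a score for each peak, a whole number without a stated scale, beside its position, annotation and distance to the nearest start.

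Genes came from RefSeq (GRCh38.p14) and were matched by identifier, which the table held for 99.7% of peaks. A peak counted for a promoter where its nearest edge lay within 1 kb of the assigned start. The code for that rule was run on simulated peaks placed by the same definition. Such a run checks the code and not the deposited distances or start sites. Promoter windows of 300 bases came from the same source. No test was run, since there is 1 library. The members, lists and motifs were chosen with earlier results of these data known, and the genes described in full are those with a promoter peak, those with a peak among the 2144 highest-scoring, a set of well-known genes and the partners with a promoter peak. Others are named to account for the members. Alternatives were a narrower and a wider window (100 bp, 5 kb), the promoter class of the annotation, score thresholds, peaks without repeats and RefSeq starts. Tables were made in Python 3.11.15 with pandas 2.3.3 and numpy 2.4.6, intervals with scipy 1.17.1 and plots with matplotlib 3.10.9.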

Additional observations from a re-analysis of the deposited data

How the results depend on the processing

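Under 8 alternatives, 78 of 96 counts stayed within 1.5 times the reported one and 18 did not. Windows of 100 bp and 5 kb gave 19 and 25 chaperone genes with a promoter peak (all protein-coding genes 10.9% and 20.3%), with 1 small heat shock protein gene, HSPB1, at 5 kb. Among the 10720 higher-scoring peaks 13 chaperone genes had one (13.8%, all protein-coding genes 7.45%). Of these 3 were J-domain genes (6.67% of the family). By compartment 3 were mitochondrial (30.0%), 1 was of the endoplasmic reticulum (7.69%) and 9 were of the cytosol, nucleus and other places (13.4%). Among the 2144 highest-scoring peaks 5 had a promoter peak (5.32%, all protein-coding genes 1.57%). By family these included 2 HSP70 and HSP110 (13.3%), 1 HSP90 (33.3%), 0 J-domain and 1 chaperonin gene (7.69%). By compartment 1 was mitochondrial (10.0%), 0 were of the endoplasmic reticulum and 4 were of other places (5.97%). Another 5 genes had distant peaks alone (5.32%), near the 5.44% of all protein-coding genes. Without repeat-labelled peaks 11 genes (11.7%) had distant peaks alone (all protein-coding genes 8.04%, against 26.2% with them), and 22 a promoter peak. Counting any peak at a RefSeq start gave 8 chaperonin (61.5%) and 2 BAG genes (33.3%), against 18.6% of all protein-coding genes. Leaving out HSPA1A, HSPA1B, HSPA6 and the readthrough genes HSPE1-MOB4 and DNAJC25-GNG10, chosen after seeing the data, gave 21 of 89 (23.6%, all protein-coding genes 15.5%). No paired analysis was possible because there is 1 ChIP library without replicates.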
